A study of Mus musculus with 4 samples.

Results

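Genes of cholesterol synthesis, uptake and efflux were compared between mouse small intestinal organoids and the crypts from which they were grown. The set held 33 genes picked by symbol for their known place in the pathway, out of 15538 genes tested on a whole-genome array. All 33 had a tested probe, and the probe that represented each gene was well above background in all 8 channels. The organoid group came from crypts of 2 mice that were embedded in Matrigel, a basement membrane gel, and grown for 1 week in medium whose growth factors were Noggin at 100 ng/ml, R-spondin at 500 ng/ml and EGF at 10 to 50 ng/ml. The crypt group was the other portion of each mouse's crypts, freed with EDTA, passed through a 70 µm strainer and taken for RNA without culture. No allele or drug set the groups apart, both are mixtures of epithelial cell types, and strain, sex and age were not given in the sources used here. Organoid and crypt RNA of a mouse were hybridised together in Cy5 and Cy3, and a second array of each mouse had the dyes swapped, so 4 arrays gave n = 2 mice.

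Cholesterol is built from acetyl-CoA through mevalonate, the isoprenoid diphosphates, squalene and lanosterol. Most genes of this route are activated by SREBP2, a membrane-bound transcription factor that SCAP escorts to its activating proteases and that INSIG proteins hold back when sterols are plentiful. The LXR nuclear receptors respond to oxysterols and raise genes of cholesterol export. In the small intestine, enterocytes take up luminal cholesterol through NPC1L1, esterify it with SOAT2 and return sterols to the lumen through the ABCG5 and ABCG8 pair.

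A level below is a log2 intensity after normalization, given for mouse 1 and then mouse 2, and levels are compared only within a gene. A ratio is log2 of organoid over crypt, averaged over the 2 arrays of a mouse, and its mean and SD are over n = 2 mice. A gene passed the test where limma's Benjamini-Hochberg adjusted p over all genes was under 0.05. Median spot signals were 266 to 312 in the Cy5 channel and 161 to 178 in the Cy3 channel, and at most 1 spot per array was saturated. Across probes, the dye-swapped arrays of each mouse correlated with r = 0.818 to 0.825 once turned to organoid over crypt. All 4 arrays lay on 1 slide and were read in 1 scan. Nothing in the labels says that the 2 mice were cultured on separate occasions. With 2 mice, the p-values rest on the spread between these samples and on a spread pooled over all genes tested. In bulk RNA, fewer cells of a type and less RNA per cell cannot be told apart.

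Synthesis genes were higher in organoids along nearly the whole route, whereas intestinal uptake, esterification and apical efflux genes were lower. Of the 33 genes, 19 passed the test as higher in organoids, against 5.43% of all genes tested. Lower calls numbered 4, against 5.49% of all genes tested, and 10 genes did not pass. With median centring in place of loess the calls were 7 higher and 0 lower. The median ratio of the 33 genes was 0.84, against 0.02 over all genes. At least 2-fold higher levels in both mice were found for 13 of the 33, against 1.62% of all genes. Organoid and crypt levels did not overlap for 29 of the 33, which is also the case for 57.4% of all genes. For 27 of the 33 the unadjusted p was under 0.05, which is the case for 27.6% of all genes. The plot of the ratios by role shows the synthesis genes to the right of 0 and Npc1l1, Soat2, Abcg5 and Abcg8 to the left.

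**Figure D1:**
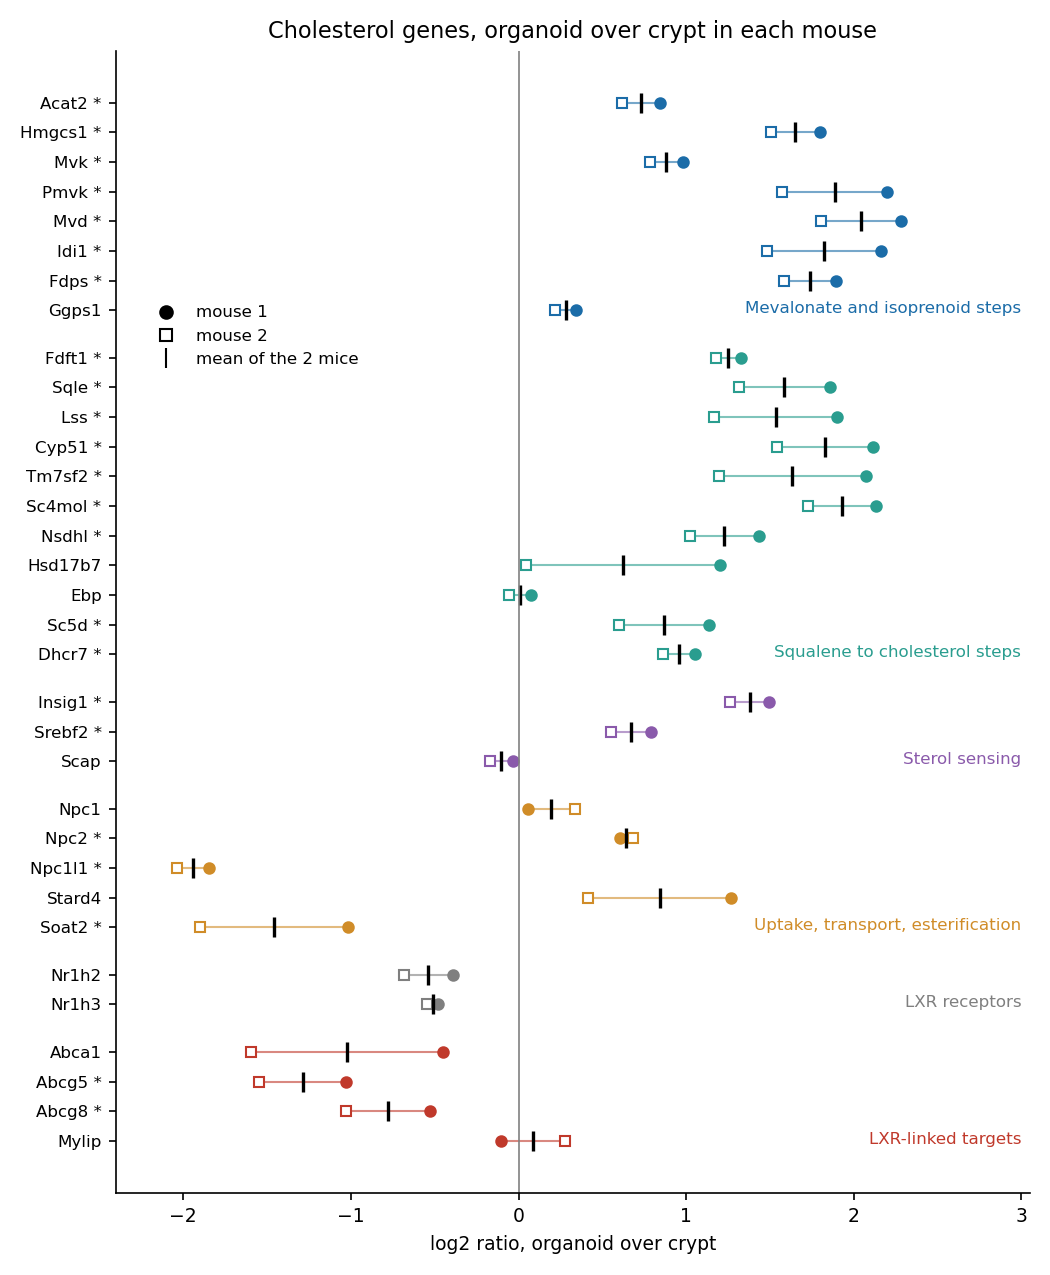
Log2 ratio of organoid over crypt (horizontal axis) for the 33 cholesterol genes (rows), coloured by role. Filled circles are mouse 1, open squares mouse 2 and black bars the mean of the 2 mice, and an asterisk marks a gene that passed the limma test. Mvd, at a mean of 2.04, lies farthest right, and Npc1l1, at -1.94, farthest left.

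The first steps, from acetyl-CoA to the isoprenoid diphosphates, were represented by 8 genes, of which 7 were higher in organoids and none lower, with a median ratio of 1.70. All 8 had a ratio above 0 in both mice, against 37.1% of all genes tested. The level of Mvd, which decarboxylates mevalonate diphosphate, was 13.22 and 12.68 in organoids and 10.94 and 10.87 in crypts. Both organoid samples lay above both crypt samples, and the ratio of 2.04 ± 0.34 made Mvd 4.12-fold higher (limma adjusted p = 0.00418). Its probe lies at chr8:124957750-124957809 in mm9. Pmvk, phosphomevalonate kinase, had levels of 14.80 and 14.19 in organoids against 12.60 and 12.62 in crypts. The organoid samples were again the higher ones, in both mice, with a ratio of 1.89 ± 0.44 (adjusted p = 0.00675). Idi1, the isomerase that makes dimethylallyl diphosphate, stood at 15.00 and 14.35 in organoids against 12.84 and 12.87 in crypts. The crypt samples of the 2 mice nearly coincided, and the ratio was 1.82 ± 0.48 (adjusted p = 0.00840). The files place the Idi1 probes on chromosome 2, whereas the RefSeq gene table has Idi1 on chromosome 13, so the place that these probes read is not settled here.

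Farnesyl diphosphate synthase, Fdps, makes the isoprenoid from which sterols and prenyl groups both start. Its level was 15.28 and 14.71 in organoids and 13.39 and 13.13 in crypts, a ratio of 1.74 ± 0.22 with no overlap between the groups (adjusted p = 0.00457). Hmgcs1, the cytosolic synthase that supplies the substrate of mevalonate production, had levels of 15.39 and 14.76 in organoids and 13.59 and 13.26 in crypts. Every organoid sample exceeded every crypt sample, and the ratio was 1.65 ± 0.21 (adjusted p = 0.00488), or 0.94 as a mean over its probes (adjusted p = 0.0371). Mevalonate kinase, Mvk, stood at 10.90 and 10.50 in organoids and 9.92 and 9.72 in crypts. The organoid samples were higher by a smaller margin, with a ratio of 0.88 ± 0.14 (adjusted p = 0.0201). Acat2, the cytosolic thiolase that joins acetyl-CoA units, had levels of 9.55 and 9.003 in organoids against 8.71 and 8.39 in crypts. Its groups did not overlap, its ratio was 0.73 ± 0.16, and its call (adjusted p = 0.0337) was lost under 5 of 10 alternative settings. Acat2 had a ratio of 1.17 in the scanner's own ratios and 1.14 in the deposited matrix. Ggps1, which draws farnesyl diphosphate off to geranylgeranyl groups for protein prenylation, was the only one of the 8 not to pass. Its level was 9.75 and 9.77 in organoids against 9.41 and 9.56 in crypts, with a ratio of 0.28 ± 0.09 (95% interval -0.05 to 0.61, adjusted p = 0.244).

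From squalene to cholesterol, 9 of 11 genes were higher in organoids and none lower, with a median ratio of 1.25. The ratio of mouse 1 exceeded that of mouse 2 for all 11. Sc4mol, now named Msmo1, is an oxygenase of the sterol demethylation steps. It had levels of 15.63 and 14.83 in organoids and 13.50 and 13.11 in crypts. The organoid samples stood well apart from the crypt samples, with a ratio of 1.93 ± 0.29, or 3.8-fold (adjusted p = 0.00420). For Cyp51, the lanosterol demethylase, levels were 12.33 and 11.36 in organoids and 10.21 and 9.81 in crypts. The groups did not overlap, and the ratio was 1.83 ± 0.40 (adjusted p = 0.00655). Tm7sf2, the sterol reductase that acts on the product of Cyp51, stood at 13.36 and 12.55 in organoids and 11.29 and 11.36 in crypts. Its crypt samples were close to each other and its organoid samples were not, and the ratio was 1.63 ± 0.62 (adjusted p = 0.0164).

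Squalene epoxidase, Sqle, catalyses the first oxygenation of the route. Its level was 14.08 and 13.04 in organoids and 12.23 and 11.72 in crypts, a ratio of 1.59 ± 0.38 (adjusted p = 0.00879). Lanosterol synthase, Lss, which closes the sterol rings, had 11.89 and 10.73 in organoids and 9.99 and 9.56 in crypts. For both genes the organoid sample of mouse 2 was nearer the crypts than that of mouse 1, and the ratio of Lss was 1.53 ± 0.52 (adjusted p = 0.0146). Fdft1, squalene synthase, is the committed step towards sterols. It stood at 13.47 and 12.64 in organoids and 12.14 and 11.46 in crypts, with a ratio of 1.25 ± 0.10 (adjusted p = 0.00794). Nsdhl, a dehydrogenase that works with Msmo1, had levels of 11.30 and 10.45 in organoids against 9.86 and 9.42 in crypts. Both Fdft1 and Nsdhl kept every organoid sample above every crypt sample, and the ratio of Nsdhl was 1.23 ± 0.29 (adjusted p = 0.0127).

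The remaining genes between squalene and cholesterol had smaller ratios than the others of that role. Ratios of Acat2, Mvk and Ggps1 in the first steps were in the same range. Dhcr7, the reductase that yields cholesterol itself, had levels of 13.07 and 12.51 in organoids and 12.01 and 11.65 in crypts. Its groups did not overlap, and its ratio was 0.96 ± 0.14 (adjusted p = 0.0163), or 0.64 as a mean over its probes (adjusted p = 0.0437). Sc5d, the desaturase just before it, stood at 13.64 and 12.97 in organoids and 12.51 and 12.37 in crypts. The ratio of Sc5d was 0.87 ± 0.38, and its call (adjusted p = 0.0407) was lost under 6 of 10 alternative settings. Ebp, the isomerase that shifts the ring double bond, was the synthesis gene with the ratio nearest 0. Its level was 14.60 and 14.48 in organoids and 14.53 and 14.54 in crypts, so the groups overlapped, and the ratio was 0.01 ± 0.09 (95% interval -0.32 to 0.34, adjusted p = 0.977). The sign of the Ebp ratio turned under 3 alternatives, which bears only on a value near 0. Hsd17b7, the keto reductase of the demethylation complex, had levels of 11.17 and 9.93 in organoids and 9.97 and 9.88 in crypts. The organoid sample of mouse 2 lay below the crypt sample of mouse 1, so the groups overlapped. Its ratios were 1.20 and 0.05 in mouse 1 and mouse 2, and the mean of 0.62 ± 0.82 did not pass (adjusted p = 0.238).

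**Figure D2:**
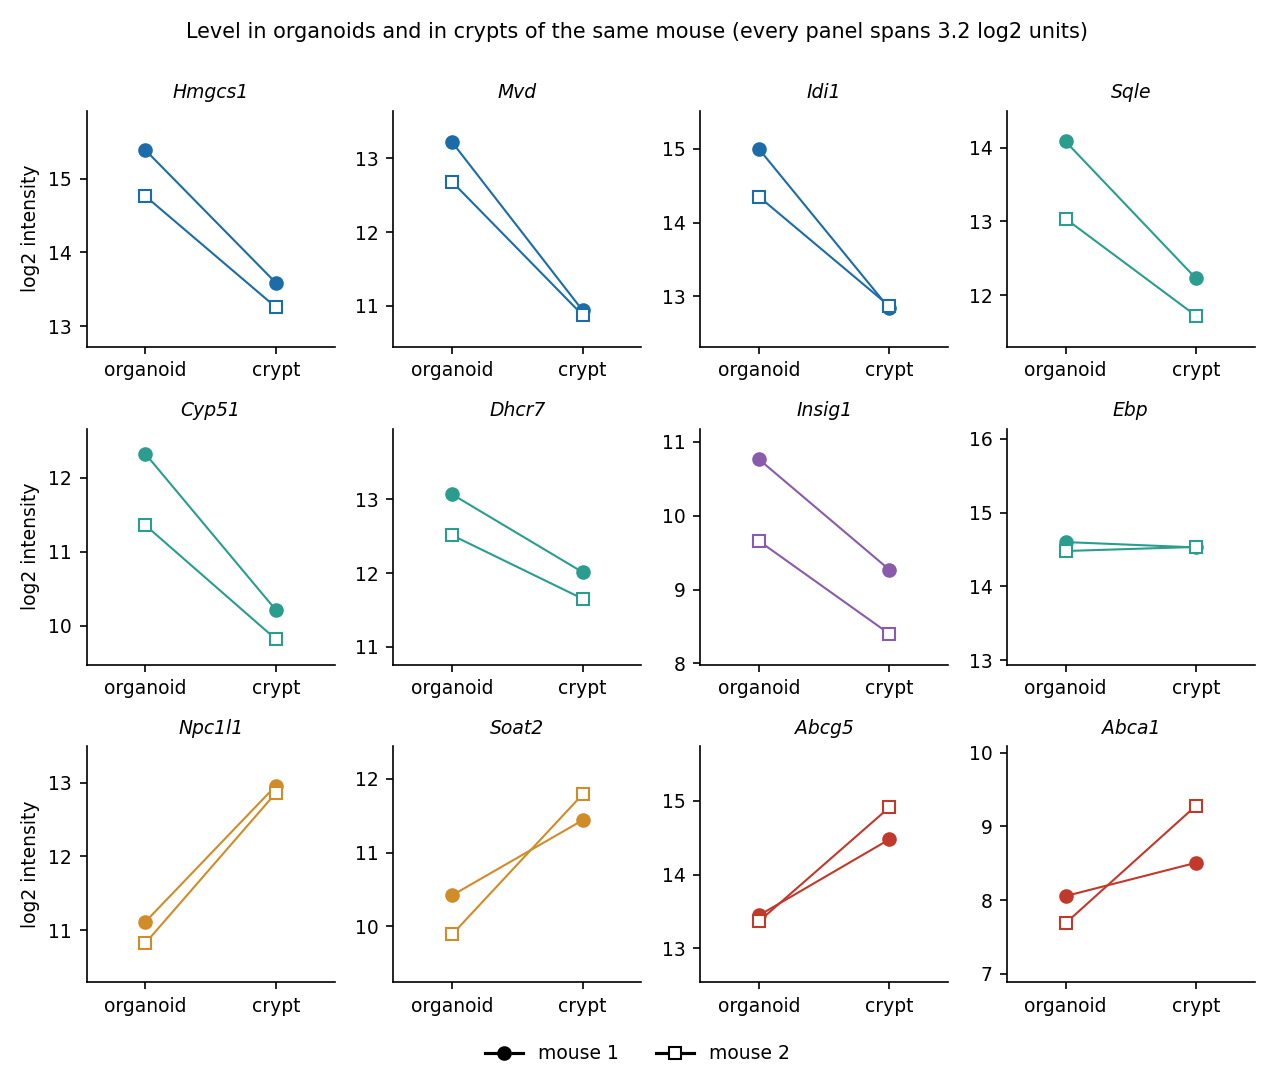
Log2 intensity (vertical axis) of 12 genes in organoids and in crypts, with a line joining the samples of 1 mouse. Filled circles are mouse 1 and open squares mouse 2, and every panel spans the same height. Lines of the synthesis genes and Insig1 run down from organoid to crypt, that of Ebp is flat, and those of Npc1l1, Soat2, Abcg5 and Abca1 run up.

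Because the synthesis genes moved together, the 250 bases before their starts were read from RefSeq promoters (GRCm38.p6), which held 27 of the 33 genes. Fdps, Fdft1, Sqle, Npc1, Stard4 and Soat2 were not matched. The letters searched on both strands were TCACNCCAC for a sterol regulatory element, CCAAT for an NF-Y box and GGGCGG for an Sp1 box. NF-Y and Sp1 are known to work beside SREBP2. No matches of different motifs overlapped. The synthesis list was both synthesis roles with Insig1 and Stard4, 21 genes of which 17 had a promoter. An NF-Y box was present in 16 of those 17 (94.1%), against 37.5% of all genes with a promoter and 40.4% of the tested genes with one. An Sp1 box was present in 15 of the 17 (88.2%), against 35.4% of all genes with a promoter and 60.7% of the tested ones. Over all 27 genes, 77.8% held an NF-Y box and 74.1% an Sp1 box. Each box was held by 2 of 4 genes that LXR is known to drive. Npc1l1, which was lower in organoids, held an NF-Y box. The sterol element was found in Hmgcs1 alone among the 27, against 1.22% of all genes with a promoter, in a search that took exact letters only. Below are the stretches of Hmgcs1, Cyp51 and Sc4mol, which were higher in organoids, and of Ebp, which did not pass the test. All are printed on the gene's own strand with every match of the 3 motifs in capitals.
Hmgcs1: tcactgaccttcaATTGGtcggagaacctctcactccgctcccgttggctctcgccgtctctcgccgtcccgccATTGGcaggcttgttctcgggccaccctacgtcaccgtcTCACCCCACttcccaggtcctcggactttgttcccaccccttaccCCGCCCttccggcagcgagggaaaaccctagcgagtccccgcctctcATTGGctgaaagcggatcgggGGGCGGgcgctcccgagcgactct
Cyp51: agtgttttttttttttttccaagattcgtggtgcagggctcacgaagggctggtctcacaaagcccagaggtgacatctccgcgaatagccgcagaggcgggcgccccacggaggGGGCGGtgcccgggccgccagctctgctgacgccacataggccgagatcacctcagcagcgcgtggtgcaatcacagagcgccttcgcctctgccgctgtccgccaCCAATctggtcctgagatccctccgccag
Sc4mol: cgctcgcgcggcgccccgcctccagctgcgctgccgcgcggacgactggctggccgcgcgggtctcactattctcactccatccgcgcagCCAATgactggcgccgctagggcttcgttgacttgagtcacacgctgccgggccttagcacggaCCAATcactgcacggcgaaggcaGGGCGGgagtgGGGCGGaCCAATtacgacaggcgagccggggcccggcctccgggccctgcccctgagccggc
Ebp: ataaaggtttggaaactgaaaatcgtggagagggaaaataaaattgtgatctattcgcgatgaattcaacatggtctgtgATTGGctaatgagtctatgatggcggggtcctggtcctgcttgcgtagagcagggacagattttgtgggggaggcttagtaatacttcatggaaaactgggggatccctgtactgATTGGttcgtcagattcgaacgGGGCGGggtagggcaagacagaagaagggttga

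These stretches lie at chr13:119690101-119690350 (plus strand) for Hmgcs1, chr5:4104698-4104947 (minus strand) for Cyp51, chr8:64733579-64733828 (minus strand) for Sc4mol and chrX:8193513-8193762 (minus strand) for Ebp, in GRCm38.p6. The Hmgcs1 stretch holds the element TCACCCCAC, from 137 to 129 bases before the start, with 3 NF-Y boxes and 2 Sp1 boxes around it. Cyp51 has 1 NF-Y box and 1 Sp1 box, and Sc4mol has 3 NF-Y boxes and 2 Sp1 boxes. Ebp, which did not pass, also holds 2 NF-Y boxes and 1 Sp1 box. Ggps1 and Hsd17b7 did not pass either and hold 3 NF-Y boxes each. A match is a run of letters, and no binding was measured.

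Of the 3 sterol sensing genes, 2 were higher in organoids. Insig1, which retains SREBP2 in the endoplasmic reticulum and is itself an SREBP2 target, had levels of 10.77 and 9.66 in organoids and 9.27 and 8.399 in crypts. Organoid levels exceeded crypt levels in both mice, and the ratio was 1.38 ± 0.17, or 2.6-fold (adjusted p = 0.00678). Srebf2, the gene of SREBP2, stood at 14.18 and 13.93 in organoids and 13.39 and 13.37 in crypts. Its ratio was 0.67 ± 0.17 (adjusted p = 0.0427), and the call was lost under 7 of 10 alternative settings, with a ratio above 0 in each and of 1.02 with median centring. Scap, the escort, had levels of 13.29 and 13.10 in organoids and 13.33 and 13.27 in crypts. It did not pass, with a ratio of -0.10 ± 0.10 (95% interval -0.44 to 0.23, adjusted p = 0.688), and its sign turned under 2 alternatives.

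Uptake, transport and esterification genes did not share a direction: 1 of 5 was higher and 2 were lower in organoids. Npc1l1, the sterol transporter of the enterocyte brush border, had levels of 11.11 and 10.82 in organoids against 12.96 and 12.86 in crypts. Both organoid samples lay far below both crypt samples. The ratio was -1.94 ± 0.14, or 3.84-fold lower (adjusted p = 0.00326), and all 4 arrays showed it. With median centring the ratio was -1.67 and the adjusted p 0.0722. The Npc1l1 probe lies at chr11:6111238-6111297 in mm9. Soat2, which esterifies absorbed cholesterol, stood at 10.42 and 9.89 in organoids and 11.44 and 11.79 in crypts. The groups did not overlap, the difference was larger in mouse 2, and the ratio was -1.46 ± 0.62 (adjusted p = 0.0220). That call was lost under 3 of 10 alternative settings.

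The lysosomal pair and the cytosolic carrier behaved otherwise. Npc2, the soluble lysosomal protein that passes cholesterol to NPC1, had levels of 12.97 and 13.15 in organoids and 12.36 and 12.47 in crypts. It was higher in organoids by a ratio of 0.64 ± 0.05 (adjusted p = 0.0405), a call lost under 5 of 10 alternative settings. Npc1, the membrane partner, stood at 8.51 and 8.77 in organoids and 8.45 and 8.43 in crypts. Its ratio was 0.20 ± 0.20 (95% interval -0.16 to 0.56, adjusted p = 0.446). Stard4, a sterol carrier that SREBP2 activates, had levels of 13.41 and 12.53 in organoids and 12.14 and 12.12 in crypts. The groups did not overlap, but the mice differed, with ratios of 1.27 and 0.42 in mouse 1 and mouse 2, and the mean of 0.84 ± 0.60 did not pass (adjusted p = 0.0822). In the mean over its 3 tested probes Stard4 passed (0.84, adjusted p = 0.0342), and the ratios of its other tested probes were 0.96 and 0.75 for one and 0.92 and 0.71 for the other.

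Both LXR receptor genes had ratios below 0 in both mice and did not pass the limma test. Nr1h2, which encodes LXR beta, had levels of 11.14 and 10.98 in organoids and 11.53 and 11.66 in crypts. Its ratio was -0.54 ± 0.21 (adjusted p = 0.0801, or 0.0411 with the 4 arrays and the mouse as a random replicate block). Nr1h3, which encodes LXR alpha, stood at 11.34 and 11.35 in organoids and 11.82 and 11.89 in crypts. Its ratio was -0.51 ± 0.05 (adjusted p = 0.0709, or 0.0151 with that block). The block fit counts arrays rather than mice and was added after the data were seen. Nr1h2 passed under 3 of 10 alternative settings and Nr1h3 under 2 of 10, the block among them. Neither gene's groups overlapped, which is also the case for 57.4% of all genes. Both had an unadjusted p under 0.05, against 27.6% of all genes. With median centring the ratios were -0.29 for Nr1h2 and -0.26 for Nr1h3, and with organoids in Cy3 alone that of Nr1h2 was -0.32.

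Among 4 genes that LXR is known to drive, 2 were lower in organoids and none higher, with a median ratio of -0.90. Abcg5, one of the apical exporter pair, had levels of 13.45 and 13.37 in organoids and 14.48 and 14.91 in crypts. The organoid samples agreed closely and lay below both crypt samples, with a ratio of -1.29 ± 0.36, or 2.44-fold lower (adjusted p = 0.0142). Abcg8, its partner, stood at 8.77 and 8.71 in organoids and 9.30 and 9.73 in crypts. Its groups did not overlap, its ratio was -0.78 ± 0.35 (adjusted p = 0.0494), and the call was lost under 4 of 10 alternative settings. Abca1, which loads cholesterol onto apolipoproteins, had levels of 8.06 and 7.69 in organoids and 8.51 and 9.28 in crypts. Both mice had ratios below 0, at -0.45 and -1.59, and the mean of -1.02 ± 0.81 did not pass (adjusted p = 0.0872). Abca1 passed under 6 of 10 alternative settings, of which 2 count the 4 arrays rather than mice, among them the replicate block (adjusted p = 0.0268). Its ratio was -1.88 in the scanner's own ratios (adjusted p = 0.0471) and -1.90 in the deposited matrix (adjusted p = 0.0476). Mylip, a ubiquitin ligase that limits lipoprotein uptake, had levels of 7.96 and 8.28 in organoids and 8.06 and 8.003 in crypts. Its mice disagreed in direction and its groups overlapped, with a ratio of 0.09 ± 0.27 (95% interval -0.30 to 0.48, adjusted p = 0.779).

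Abcg5 and Abcg8 lie head to head on chromosome 17 and were both lower, so the bases between their starts are given. This stretch of 109 bases, at chr17:84683012-84683120 on the plus strand of GRCm38.p6 (RefSeq), holds none of the 3 motifs above. The 250 bases before that Abcg8 start reach beyond the stretch. They hold 2 NF-Y boxes, at 114 to 110 and at 175 to 171 bases before the start. The stretch also lacks an LXR repeat, here 2 copies of AGNTCA in the same direction 4 bases apart. No promoter of the 27 genes held that repeat, against 0.122% of all genes with a promoter, and its absence says only that these letters are not in these windows.
Abcg5 to Abcg8: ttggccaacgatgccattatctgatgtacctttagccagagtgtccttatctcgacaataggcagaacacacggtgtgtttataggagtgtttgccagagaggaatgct

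Markers of enterocytes, the cells known to express Npc1l1, Soat2, Abcg5 and Abcg8, were lower in organoids as well. Of 8 enterocyte markers, 7 were lower, against 5.49% of all genes tested, and none higher. Their median ratio was -1.46, and all 8 were above background in both tissues. Their summed linear levels were 68824 and 72359 in organoids, against 297517 and 272591 in crypts. The lactase gene Lct had a ratio of -4.47 ± 0.06, and those of Krt20, Anpep and Treh were -2.75 ± 0.03, -2.10 ± 0.62 and -1.53 ± 0.12. All 4 Paneth cell markers and 3 of 4 goblet cell markers were lower too. Among 7 markers of white blood cells, which include the macrophages that express Abca1, 1 passed as lower (Cd3g), and their summed levels were 1409 and 1416 in organoids, against 1894 and 1838 in crypts. The median ratio of the 7 was -0.50, and 6 had ratios below 0 in both mice, against 4934 of all 15538 genes tested. The exception, Cd3e, was the brightest of them and had a ratio of 0.08 ± 0.19 (adjusted p = 0.775). Cd3g was not well above background in any organoid channel, nor was Itgam, which was named after its values were seen. Some of the 7, Cd3g and Itgam among them, were tested only because all 4 crypt channels were above background. That filter favours ratios below 0, so it partly sets the median, the count below 0 and the summed levels. Of 7 markers of stroma, muscle and vessels, 2 had a tested probe, and Acta2 was lower. The part of these cell types in the lower levels of Npc1l1, Soat2, Abcg5, Abcg8 and Abca1 was not tested. Of 7 epithelial markers, Krt18 was higher and Krt8, Krt19 and Vil1 were lower. All 7 were well above background in every channel of both tissues.

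Set side by side, the 21 genes of the synthesis list had a median ratio of 1.38, with 17 higher and none lower in organoids, and the 4 LXR-driven genes had a median of -0.90. In the synthesis list, 18 of 21 genes had an unadjusted p under 0.05, against 27.6% of all genes tested, and 20 had a ratio above 0 in both mice, against 37.1%. The medians differed by 2.28 over both mice, by 1.99 in mouse 1 and by 2.47 in mouse 2. No test was made of this difference, since the lists were drawn up with results known. Across the settings tried it ranged from 1.99 in mouse 1 alone to 2.82 in the scanner's own ratios. The plot of medians by setting shows the synthesis list above 1 and the LXR-driven genes below 0 at each setting. Beyond these 4, the 6 tested genes listed as LXR partners and further LXR targets had a median ratio of -0.14, and none passed the limma test. Srebf1, another known LXR target, was listed with the SREBP genes instead. It was higher in organoids, at 0.68 ± 0.03 (limma adjusted p = 0.0336).

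**Figure D3:**
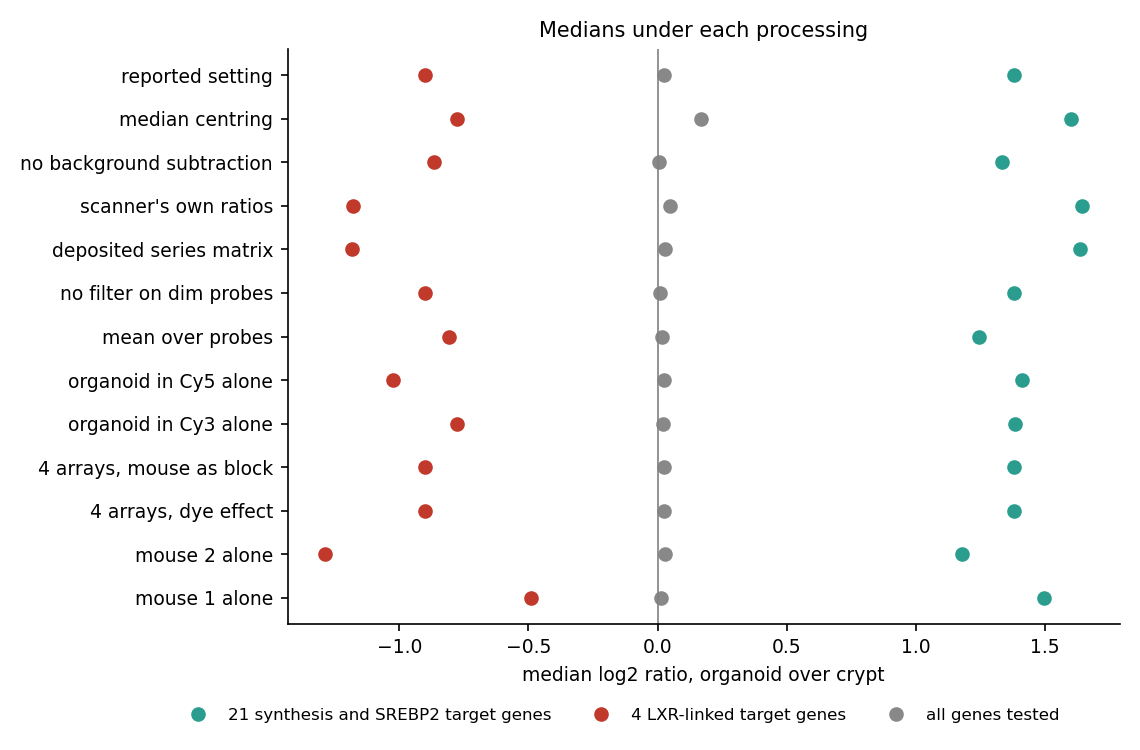
Median log2 ratio of organoid over crypt (horizontal axis) for the 21 synthesis list genes, the 4 LXR-driven genes and all genes tested, under each way of processing the arrays (rows). The synthesis median stays between 1.18 and 1.64, the LXR median between -1.29 and -0.49, and the median of all genes between 0.007 and 0.17.

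The 2 mice differed in size more than in direction. The ratio of mouse 1 was above that of mouse 2 for all 21 genes of the synthesis list and for 30 of the 33 genes, against 49.9% of all genes tested. Npc1, Npc2 and Mylip were the exceptions. In the synthesis list, the level of mouse 1 was above that of mouse 2 for 20 of 21 genes in organoids, with a median difference of 0.67. In crypts it was above for 16 of 21, with a median difference of 0.26. Over all genes tested, mouse 1 was above mouse 2 for 47.2% in organoids and 45.2% in crypts. Abca1 and Soat2 showed the same order of ratios from the other side of 0, with the ratio farther from 0 in mouse 2. For Abca1 the level in organoids of mouse 2 was the lowest of its 4 samples and that in crypts of mouse 2 the highest. With 1 organoid and 1 crypt sample per mouse, this difference between mice could not be tested.

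**Figure D4:**
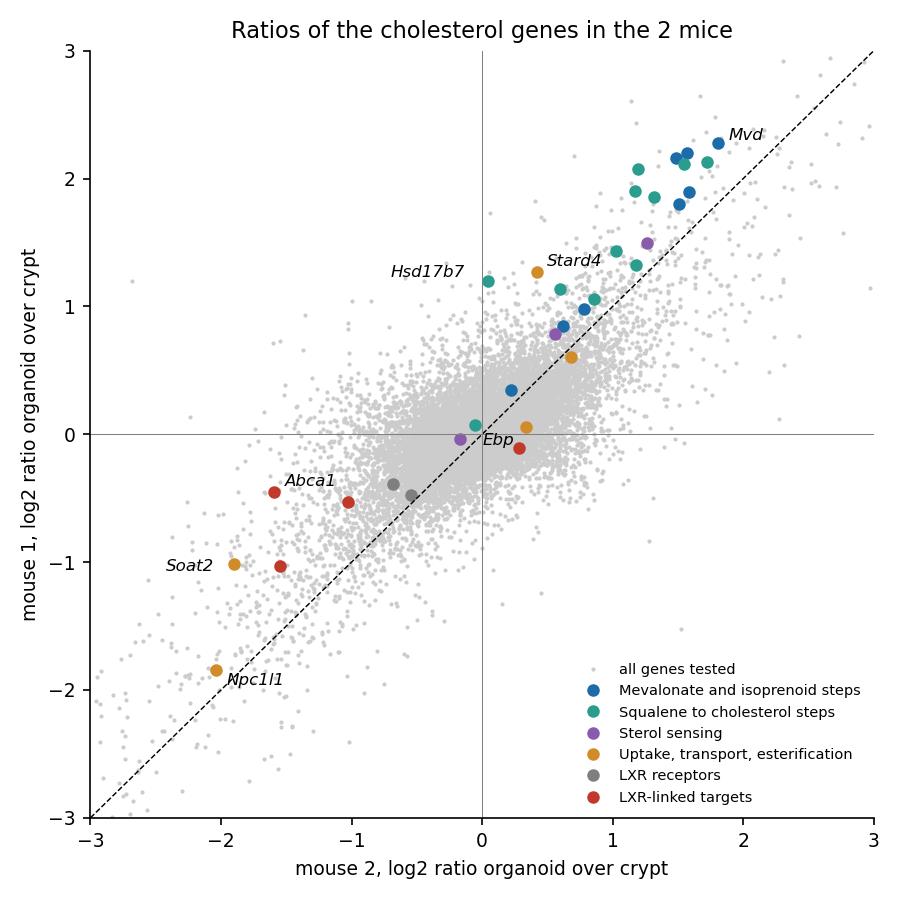
Log2 ratio of organoid over crypt in mouse 2 (horizontal axis) and in mouse 1 (vertical axis) for all genes tested (grey) and for the 33 cholesterol genes, coloured by role. The dashed line marks equal ratios, and 63 genes beyond 3 on either axis are not shown. Among the 33 genes, 30 lie above the dashed line.

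Several probes were tested for 16 of the 33 genes, and they gave 24 tested probes beside the representative ones. All 24 had a mean of the same sign as the representative probe, and 20 were smaller in size. The 3 Cyp51 probes were close, with means of 1.83, 1.86 and 1.61, and the Pmvk probes had 1.89 and 1.79. The Lss probes had means of 1.53, 1.82 and 1.12. Hmgcs1, in contrast, had means of 1.65, 1.09 and 0.08, and in its dimmest probe the mice disagreed, with ratios of 0.83 and -0.67. A dim probe of Nsdhl also split the mice, at 0.51 and -0.42, while its other 3 probes had means of 1.23, 1.16 and 1.10. The second Fdps probe had 1.36 in mouse 1 and 0.13 in mouse 2. For Hsd17b7 the second probe had ratios of 0.97 and 0.48, both above 0. A second Fdft1 probe, too dim to be tested, had a mean of -0.18. In Abcg8 the second probe had ratios of -0.25 and -0.58, smaller than those of the first.

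**Figure D5:**
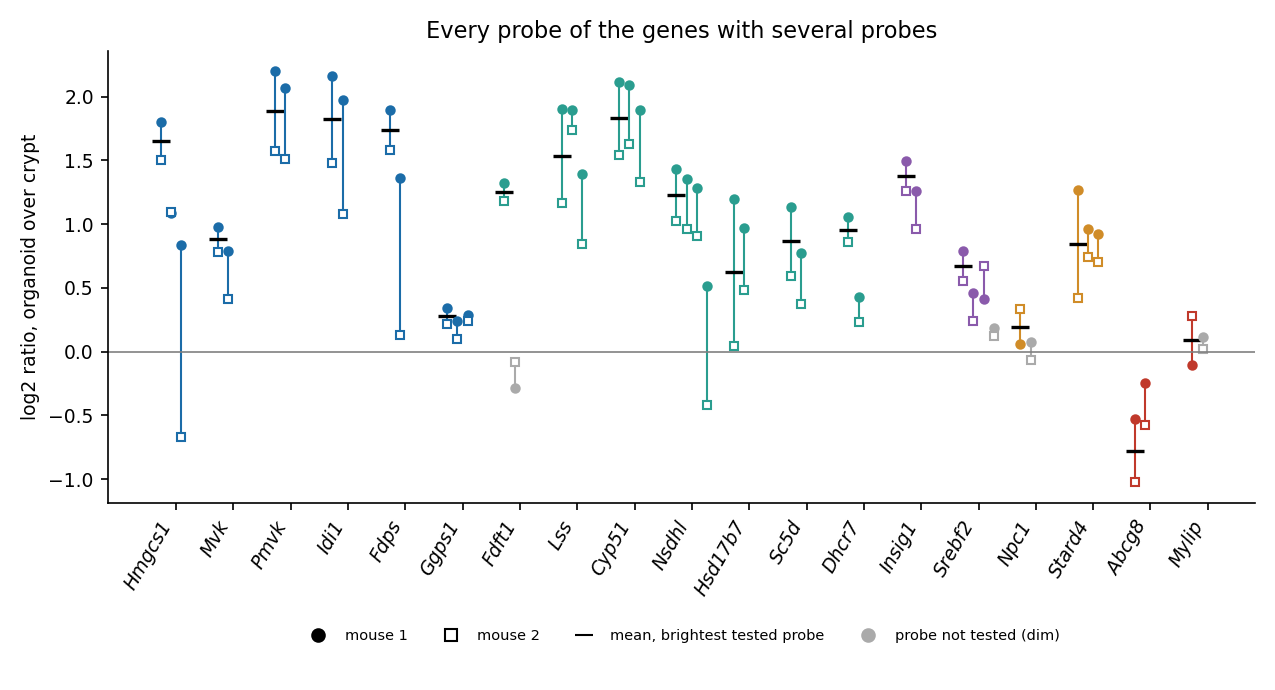
Log2 ratio of organoid over crypt (vertical axis) for every probe of the genes that have several (horizontal axis), with the brightest tested probe of a gene on the left. Filled circles are mouse 1, open squares mouse 2, black bars the mean of the representative probe, and grey symbols mark probes too dim to be tested. Most probes of a gene lie on the same side of 0. The widest pairs are the last Hmgcs1 probe, the last Fdps probe, the first Hsd17b7 probe and the last Nsdhl probe.

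Other genes of the pathway were read from lists drawn up beside the 33. For their counts, 5.43% of all genes tested were called higher and 5.49% lower. Of 7 tested genes that process or turn over SREBPs, 1 was higher and none lower: Srebf1, the fatty acid paralogue of Srebf2, with levels of 14.52 and 14.23 in organoids and 13.85 and 13.53 in crypts and a ratio of 0.68 ± 0.03 (adjusted p = 0.0336). Mbtps2, a protease that frees SREBPs, had no tested probe. Among 4 other sterol-regulated genes, 2 were higher and none lower. Aacs, which makes acetoacetyl-CoA in the cytosol, had a ratio of 1.08 ± 0.34 (adjusted p = 0.0202). Acss2, which makes acetyl-CoA from acetate, had 0.85 ± 0.13 (adjusted p = 0.0215). None of 6 tested LXR partners and further LXR targets passed the limma test. Of these 6, 1 had an unadjusted p under 0.05, against 27.6% of all genes tested. The median ratio of the 6 was -0.14. The brightest of them, Smpdl3a, had ratios of -0.92 and -0.18, the lowest mean of the 6, and Pltp had no tested probe.

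Of 9 further uptake, storage and trafficking genes, 3 were higher and 2 lower in organoids. Vldlr, a lipoprotein receptor, had levels of 11.24 and 10.52 in organoids and 9.22 and 8.84 in crypts, a ratio of 1.85 ± 0.24 (adjusted p = 0.00413). Soat1, the widely expressed counterpart of Soat2, had levels of 12.79 and 13.61 in organoids and 11.85 and 11.76 in crypts. Its ratio of 1.40 ± 0.65 (adjusted p = 0.0263) was opposite in sign to that of Soat2. Scarb1, a receptor for high-density lipoprotein, was higher by 1.01 ± 0.20 (adjusted p = 0.0161). Lrp1, a large lipoprotein receptor, was lower by a ratio of -1.14 ± 0.07 (adjusted p = 0.00938). Lipa, the lysosomal acid lipase, was named after its values were seen and had -0.79 ± 0.21 (adjusted p = 0.0311). In the non-sterol branch of the isoprenoids, 1 of 9 tested genes was higher and none lower. That gene was Pdss1, which builds the ubiquinone tail, with a ratio of 0.76 ± 0.20 (adjusted p = 0.0336). Coq2, the brightest of the branch, had 0.22 ± 0.08 (adjusted p = 0.350), and Pdss2 had no tested probe.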

How the data were processed

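RNA of organoids and crypts from 2 mice was measured on 4 Agilent 2-colour arrays of 45018 spots (1639 controls, 41174 probes). The RNA kit is not settled: Trizol per the labels, RNeasy per the design text. Feature Extraction is version 10.2.1.3 per the file headers and 9.5.3 per the submitters' processing notes. Deposited intensity values, a mean per spot and a median per local background in each dye, are linear and not normalized. Deposited log10 ratios of Cy5 over Cy3 come from the scanner software, which subtracted background and normalized dyes, per the file headers. The authors' deposited matrix proved to hold log2 ratios of Cy5 over Cy3 (r = 0.978 to 0.991 against the scanner's), with a median of 0 per array. Its centring is not stated in the labels or headers. Other deposited columns, which mark spots as above background, saturated or outlying, served as filters.

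In R 4.3.3 with limma 3.58.1, background was corrected by normexp (offset 50) and arrays by loess, with control spots at weight 0. Outlier spots were dropped. Ratios were turned by the dye labels, and both arrays of a mouse, dye swaps of the same RNA, were averaged, so n = 2. Tested probes (21923) were unmarked on every array and above background in all 4 channels of at least 1 tissue. RefSeq accessions named 24844 probes and the files' gene names the others. The brightest tested probe stood for its gene (15538 genes). Levels are log2 intensities after loess and Aquantile, which aligns average intensities between arrays. Means over mice were tested against 0 by lmFit and eBayes (two-sided, Benjamini-Hochberg over all genes). There was 1 residual degree of freedom per gene, plus 4.16 prior ones (prior SD 0.201). The number of arrays limits the precision.

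The averaging and the fit were run on simulated ratios with known changes, whose spread between mice was drawn from these data. That run checks the code and lends no support to the ratios reported here. The genes and lists were chosen with earlier results of these data known. Values are given for all 33 genes. Of each other list at most 4 are named: those past the test with the largest ratios and, where fewer than 2 passed, the brightest. Itgam and Lipa were named outside that rule, after their values were seen. Probe positions are in mm9, per the files. Promoters came from RefSeq for GRCm38.p6, which is not the files' build, and were matched by symbol.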

Additional observations from a re-analysis of the deposited data

How the results depend on the processing

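The alternatives that used both mice kept the direction of the ratio for 31 of the 33 genes, the exceptions being Scap and Ebp. Scap turned to 0.22 with median centring and to 0.037 with organoids in Cy5 alone. Ebp turned to -0.031 in the scanner's ratios, to -0.0067 in the deposited matrix and to -0.20 with organoids in Cy3 alone. Counts of calls moved more. Median centring in place of loess left 130 genes higher and 94 lower, 7 of the 33 higher and 0 lower, and 7 of the synthesis list higher. There the median of all genes was 0.17. Without a filter on dim probes, which tests more probes, 293 genes were higher and 384 lower, with 8 of the 33 higher, 1 lower, and 8 of the synthesis list higher. With organoids in Cy3 alone, 432 genes were higher and 476 lower, and 2 of the 33 were lower. The scanner's ratios gave a synthesis median of 1.64 and a difference from the LXR-driven genes of 2.82, and the deposited matrix gave 1.64 and 2.82. The cause of these shifts was not tested.

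A fit of the 4 arrays with the mouse as a random replicate block (correlation 0.173) and no dye effect was added after the data were seen. It counts arrays rather than mice and called 1590 genes higher and 1490 lower, with 7 of the 33 lower. The planned block with a dye effect was not run, since limma cannot estimate it from 4 arrays. The 4 arrays with a dye effect and no block called 1952 higher and 1757 lower, with 7 of the 33 lower. The block changed no call among the 33 other than those of Abca1, Nr1h2 and Nr1h3. Mouse 1 alone turned the ratio of Mylip to -0.10. In either mouse alone, with no test, the synthesis median was 1.18 to 1.497, the LXR median -1.29 to -0.49, their difference 1.99 to 2.47 and the median of all genes 0.01 to 0.03.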
